A study of Mus musculus with 7 samples.

Results

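Macrophage genes were examined in 7 libraries of mouse embryoid bodies, which are balls of differentiating embryonic stem cells grown in suspension. The genes are 35 members, chosen by symbol for their known role in macrophages after the library titled KD had been seen to carry counts of such genes. All 35 matched a feature of the deposited tables that holds that gene alone, of 23447 such features. Because values in KD chose the members, their level in KD is given as a description, without a test.

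The cells were of R1, a mouse embryonic stem cell line, and every group was differentiated in serum medium without Lif as hanging drops of 500 cells in 27 µl and collected on day 4. Feeder fibroblasts were reduced beforehand by letting them settle on gelatin. By title, 2 libraries were wild type (WT1 and WT2), 2 lacked the promoter of the long non-coding RNA locus Meteor (pKO1 and pKO2), 1 carried that promoter inverted (pInv), 1 came from cells with an empty vector (Ctrl) and 1 from cells in which Meteor was knocked down by CRISPR (KD). In the labels, the genotype field disagrees with 5 titles: it gives the promoter knockout for WT1 and WT2, the inversion for pKO1, and wild type for pKO2 and pInv. For KD the genotype field names dCas9 and the design text Cas9. The number of clones behind a group is not given in the sources used here. KD and Ctrl are 1 library each, so no difference between them has a replicate check.

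Macrophages are phagocytes that clear dying cells and microbes and present fragments of them to other immune cells. Their survival depends on the receptor CSF1R, and the transcription factor PU.1, encoded by Spi1, binds purine-rich sites at many of their genes. In the mouse embryo the first macrophages arise from progenitors of the yolk sac, and later ones from blood stem cells.

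Promoter sequences of 7 members are shown because the results turn on which members were present in KD and which were at 0. The first 5 had the highest counts in KD among the members that stood 4-fold or more above every other library and had an entry, and Fcer1g and Aif1 are members at 0 in KD. The windows are from RefSeq on GRCm38.p6 and run from 250 bases before to 50 bases after the annotated start. They are written 5′ to 3′ on the strand of the gene, and capitals mark the PU.1 core GAGGAA or its reverse complement TTCCTC. They lie at chr10:117282223-117282522 (Lyz2, minus strand), chr6:49036268-49036567 (Gpnmb, plus), chr3:95526536-95526835 (Ctss, plus), chr7:139992513-139992812 (Adam8, minus), chr19:12460520-12460819 (Mpeg1, plus), chr1:171234300-171234599 (Fcer1g, minus) and chr17:35176003-35176302 (Aif1, minus).
Lyz2: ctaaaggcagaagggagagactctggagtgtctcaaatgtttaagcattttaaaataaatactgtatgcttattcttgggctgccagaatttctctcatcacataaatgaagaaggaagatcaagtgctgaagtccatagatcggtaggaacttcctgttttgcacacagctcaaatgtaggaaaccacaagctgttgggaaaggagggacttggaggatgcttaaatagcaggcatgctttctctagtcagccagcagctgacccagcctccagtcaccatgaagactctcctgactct
Gpnmb: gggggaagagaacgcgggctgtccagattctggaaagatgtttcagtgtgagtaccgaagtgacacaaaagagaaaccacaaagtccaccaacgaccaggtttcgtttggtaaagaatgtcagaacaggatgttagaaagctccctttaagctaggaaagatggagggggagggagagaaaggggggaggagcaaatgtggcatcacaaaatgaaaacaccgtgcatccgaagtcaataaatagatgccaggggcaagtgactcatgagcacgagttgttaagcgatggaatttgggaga
Ctss: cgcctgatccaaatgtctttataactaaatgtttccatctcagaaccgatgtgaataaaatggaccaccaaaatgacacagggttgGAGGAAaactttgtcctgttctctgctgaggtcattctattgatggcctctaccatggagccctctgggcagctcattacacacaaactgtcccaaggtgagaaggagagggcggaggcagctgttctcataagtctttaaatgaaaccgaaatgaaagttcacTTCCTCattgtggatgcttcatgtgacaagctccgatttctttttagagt
Adam8: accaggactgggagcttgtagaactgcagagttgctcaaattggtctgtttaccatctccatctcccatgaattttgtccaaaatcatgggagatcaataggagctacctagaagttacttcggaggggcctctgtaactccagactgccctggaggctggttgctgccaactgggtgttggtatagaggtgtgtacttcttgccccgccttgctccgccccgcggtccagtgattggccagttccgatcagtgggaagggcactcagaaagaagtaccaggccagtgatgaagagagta
Mpeg1: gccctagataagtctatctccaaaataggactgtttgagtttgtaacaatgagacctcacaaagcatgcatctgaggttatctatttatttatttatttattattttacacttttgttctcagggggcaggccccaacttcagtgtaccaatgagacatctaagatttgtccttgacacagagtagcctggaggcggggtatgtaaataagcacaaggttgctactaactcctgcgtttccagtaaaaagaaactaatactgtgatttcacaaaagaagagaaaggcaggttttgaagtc
Fcer1g: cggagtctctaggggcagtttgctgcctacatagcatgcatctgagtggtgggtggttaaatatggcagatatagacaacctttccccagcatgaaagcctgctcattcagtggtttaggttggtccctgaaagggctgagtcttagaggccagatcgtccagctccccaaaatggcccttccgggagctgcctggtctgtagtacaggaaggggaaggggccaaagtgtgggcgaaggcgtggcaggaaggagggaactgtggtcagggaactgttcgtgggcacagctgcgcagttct
Aif1: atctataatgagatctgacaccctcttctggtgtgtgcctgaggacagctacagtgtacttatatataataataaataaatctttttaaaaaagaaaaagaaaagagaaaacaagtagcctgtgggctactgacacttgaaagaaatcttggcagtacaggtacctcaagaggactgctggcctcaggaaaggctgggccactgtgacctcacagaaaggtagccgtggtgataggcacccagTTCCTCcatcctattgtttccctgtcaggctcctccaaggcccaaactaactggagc

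Among these windows Ctss held 2 matches, Aif1 held 1, and the other 5 held 0. The core, searched on both strands, was in 16 of the 24 members with a window outside chromosome 18 (66.7%) and in 8446 of all 27025 genes with a window (31.3%). It was in 6 of 11 members that stood 4-fold or more above every other library (54.5%) and in 3 of 5 members that were not present in KD (60.0%). Csf1r and Cd14, which lie on chromosome 18 and stood 4-fold or more above every other library, are outside these member shares. The share of all genes was taken without leaving out that chromosome. A match is a run of letters, not a bound site. Spi1, Adgre1, Tyrobp and C1qa, among others, had no entry and are named only.

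Library totals ran from 1898350 to 2564478 expected counts, the fractional read assignments that the authors' RSEM runs gave, rounded here to whole numbers. A level in CPM, counts scaled to library size, was computed on sizes corrected by TMM, edgeR's composition correction. The embryoid body identity was checked with Eomes, a T-box factor of the primitive streak, which lay at 311 to 457 CPM in the other 6 libraries and at 398 CPM in KD. WT2 stood apart: T, the mesoderm factor Brachyury, was at 54.4 CPM there and at 177 to 357 CPM in the other libraries, and Mixl1 was at 7.17 CPM against 51.9 to 126 CPM. KD was the highest library for Mixl1 (126 CPM, against at most 98.5 CPM) and, narrowly, for T (357 against at most 351 CPM). Pou5f1, a stem cell factor, was lowest in KD, at 1081 CPM against 1353 to 2178 CPM in the others. A gene was called present at 3 or more counts, a floor that corresponds to 1.12 to 1.79 CPM by library. Intervals below cover counting error only. In bulk RNA, fewer cells of a type and less RNA per cell cannot be told apart.

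In KD, 28 of the 35 members were present (80.0%), where 49.0% of all single-gene features were. The other libraries had 4 (WT1), 3 (WT2), 6 (pKO1), 6 (pKO2), 4 (pInv) and 3 (Ctrl) members present, with 44.7% to 49.3% of all features. Summed over the members, WT1 had 267 counts, WT2 271, pKO1 192, pKO2 284, pInv 258, Ctrl 172 and KD 1584. KD was therefore above every other library. As a level, the sum was 728 CPM in KD (exact Poisson 95% interval 693 to 765) and 87.0 to 162 CPM in the others. The KD level was 8.37 times that of Ctrl (exact binomial 95% interval 7.15 to 9.86) and 4.50 times that of WT2, the highest of the others (3.95 to 5.13).

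Most of the sum outside KD came from C1qc and Lpl. Without both, the sum was 21 and 14 counts in WT1 and WT2, 18 and 25 in pKO1 and pKO2, 19 in pInv, 1372 in KD and 14 in Ctrl. KD was then at 631 CPM (598 to 665) and the others at 7.08 to 10.2 CPM, a ratio to Ctrl of 89.1 (52.9 to 163). Lyz2 alone gave 379 of the 1584 counts in KD, and the ratio to Ctrl over the other members was 6.41 (5.46 to 7.57).

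**Figure D1:**
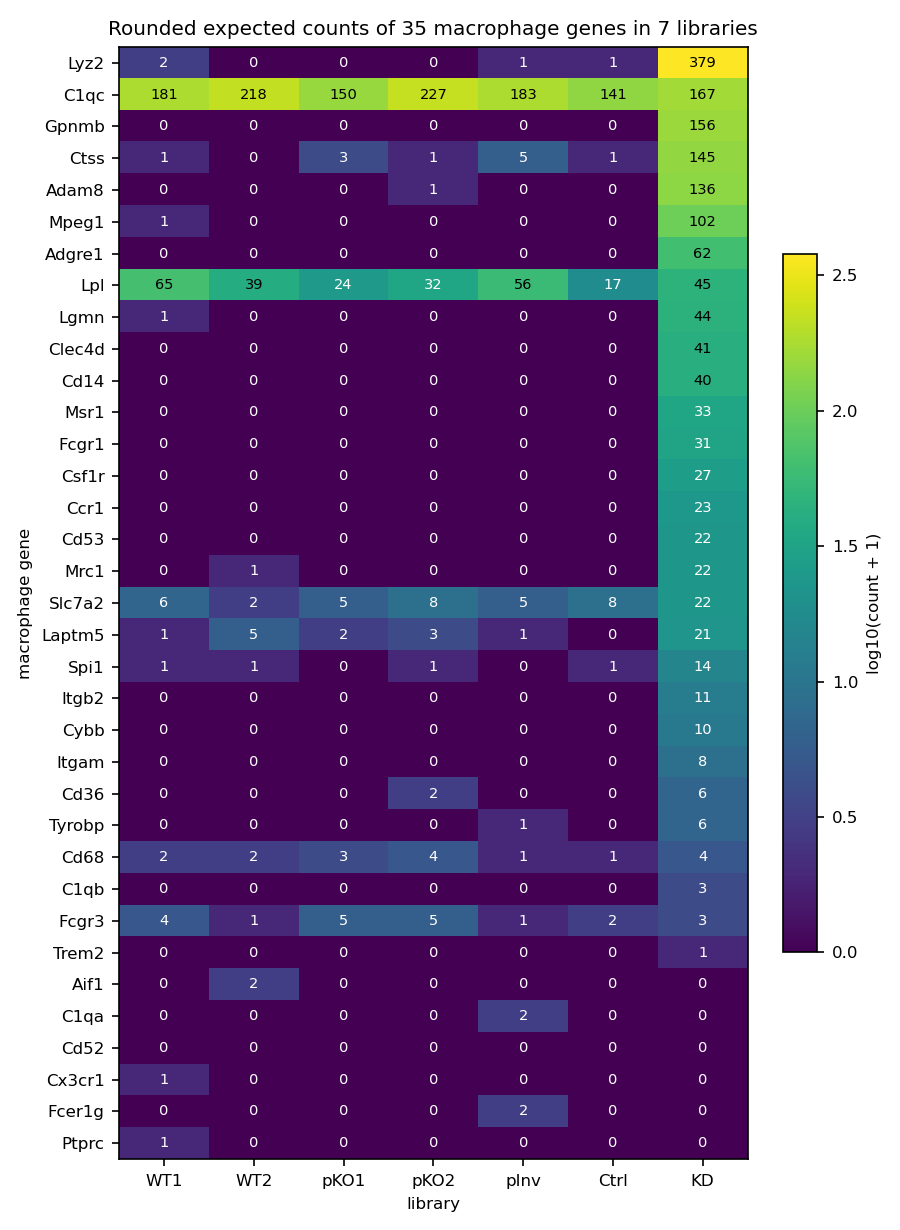
Rounded expected counts of the 35 members (rows, by count in KD) in the 7 libraries (columns), with colour giving log10(count + 1). C1qc and Lpl are filled in every library, 22 members reach 10 counts in KD, and 6 members at the bottom are at 0 in KD.

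By size, 22 members had 10 or more counts in KD, 6 had 3 to 9, Trem2 had 1 and 6 had 0. Of the 22, 15 stood 4-fold or more above every other library when each other library was set to at least 3 counts, where 1.73% of all features with 10 or more counts in KD did (154 of 8902). Members made up 9.74% of that set. Mrc1 and Cd53, at 5.64-fold above the highest other library, were the lowest of the 15. Spi1 (3.59-fold) and Laptm5 (3.23-fold) were the nearest below the bound. Against Ctrl alone, 21 of the 22 were 2-fold or more higher, where 10.7% of features with 10 or more counts in either library were. The rule for the members used this contrast, so nothing is read from these shares. In all, 15 members were at 0 in each of the other 6 libraries, and 13 of these were present in KD. The share of all features with that pattern was not computed. Values in KD chose the members, so nothing is read from this count either.

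**Figure D2:**
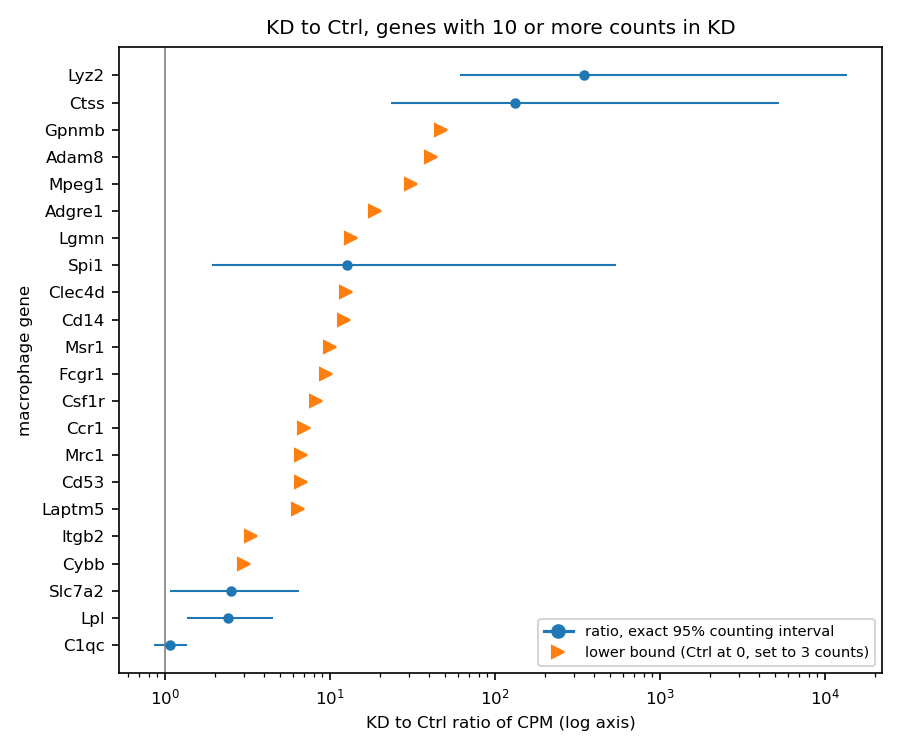
Ratio of the CPM level in KD to that in Ctrl (log axis) for the 22 members with 10 or more counts in KD. Circles with bars are ratios with exact 95% counting intervals. Triangles are lower bounds with Ctrl, at 0, set to 3 counts, without the counting error of KD. Lyz2 and Ctss have the largest ratios, and the interval of C1qc holds 1.

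The receptor and the transcription factor that define the lineage were both present in KD. Csf1r, the receptor for CSF1 and IL-34, had 27 counts in KD and 0 in each of the other 6 libraries. Its level was 12.4 CPM in KD, at least 8.18-fold higher than in Ctrl. Spi1, which encodes PU.1, had 1 and 1 counts in WT1 and WT2, 0 and 1 in pKO1 and pKO2, 0 in pInv, 14 in KD and 1 in Ctrl. KD was the highest library, with a ratio to Ctrl of 12.7 that 1 count in Ctrl leaves wide (1.94 to 538).

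Of the surface and secreted markers of macrophages, 4 of the 5 described here were counted mainly in KD. Lyz2, the lysozyme of phagocytes, had 2 counts in WT1, 1 in pInv, 1 in Ctrl, 0 in WT2, pKO1 and pKO2, and 379 in KD. The KD library did not overlap the others, and the ratio to Ctrl was 345 (61.5 to 13650). Adgre1, which encodes the F4/80 antigen, had 62 counts in KD and 0 in the other 6, at least 18.8-fold above Ctrl. Cd14, a co-receptor for lipopolysaccharide, had 40 counts in KD and 0 in the other 6, at least 12.1-fold above Ctrl. Mpeg1, the pore-forming protein perforin-2, had 102 counts in KD, 1 in WT1 and 0 in the other 5, at least 30.9-fold above Ctrl. Cd68, a lysosomal glycoprotein widely used as a macrophage marker, differed from these. It had 2 and 2 counts in WT1 and WT2, 3 and 4 in pKO1 and pKO2, 1 in pInv, 4 in KD and 1 in Ctrl, a level of 1.84 CPM in KD and 0.422 to 1.63 CPM in the others. KD was the highest library by a margin within its counting interval (0.501 to 4.71 CPM).

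Adhesion and leukocyte membrane genes were present at low counts or at 0. Itgam and Itgb2, the chains of the integrin Mac-1, had 8 and 11 counts in KD and 0 in the other 6 libraries. Cd53, a leukocyte tetraspanin, had 22 counts in KD and 0 in the other 6, at least 6.67-fold above Ctrl. Laptm5, a lysosomal membrane protein of blood cells, had 1 and 5 counts in WT1 and WT2, 2 and 3 in pKO1 and pKO2, 1 in pInv, 21 in KD and 0 in Ctrl. KD was the highest library for Laptm5, at least 6.37-fold above Ctrl. Ptprc, the CD45 phosphatase found on nearly all white blood cells, had 0 counts in KD and 1 in WT1. Cd52, a small leukocyte surface glycoprotein, was at 0 in all 7 libraries, and Aif1, the calcium-binding protein IBA1, was at 0 in KD with 2 counts in WT2. A count of 0 in KD allows a level of up to 1.38 CPM by the floor of 3 counts.

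Among Fc receptors and their signalling partners, a binding chain was present while its adaptor was not. Fcgr1, the high-affinity IgG receptor, had 31 counts in KD and 0 in the other 6 libraries, at least 9.40-fold above Ctrl. Clec4d, a C-type lectin of myeloid cells, had 41 counts in KD and 0 in the other 6, at least 12.4-fold above Ctrl. Fcer1g, the adaptor chain that both use, had 0 counts in KD and 2 in pInv. Tyrobp, the adaptor DAP12, had 6 counts in KD and 1 in pInv, and its partner receptor Trem2 had 1 count in KD and 0 in the other 6. Fcgr3, a low-affinity IgG receptor, had 4 and 1 counts in WT1 and WT2, 5 and 5 in pKO1 and pKO2, 1 in pInv, 3 in KD and 2 in Ctrl, so KD lay within the range of the others.

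Scavenger and lipid genes fell into separate patterns. Msr1, a scavenger receptor for modified lipoproteins, had 33 counts in KD and 0 in the other 6 libraries, at least 10.0-fold above Ctrl. Mrc1, the mannose receptor, had 22 counts in KD, 1 in WT2 and 0 in the other 5, at least 6.67-fold above Ctrl. Cd36, a fatty acid translocase, had 6 counts in KD and 2 in pKO2. Lpl, the lipase that frees fatty acids from lipoproteins, was present throughout, with 65 and 39 counts in WT1 and WT2, 24 and 32 in pKO1 and pKO2, 56 in pInv, 45 in KD and 17 in Ctrl. Here KD lay inside the range of the other libraries, although its level was 2.41 times that of Ctrl (1.35 to 4.49).

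Genes of lysosomal breakdown and of the membrane proteins around it were high in KD. Ctss, the cathepsin that trims the invariant chain of MHC class II, had 1 and 0 counts in WT1 and WT2, 3 and 1 in pKO1 and pKO2, 5 in pInv, 145 in KD and 1 in Ctrl. The ratio to Ctrl was 132 (23.3 to 5243). Lgmn, the lysosomal protease legumain, had 44 counts in KD, 1 in WT1 and 0 in the other 5, at least 13.3-fold above Ctrl. Gpnmb, a glycoprotein of lysosomes and phagosomes, had 156 counts in KD and 0 in the other 6, at least 47.3-fold above Ctrl. Adam8, a membrane metalloprotease of leukocytes, had 136 counts in KD, 1 in pKO2 and 0 in the other 5, at least 41.2-fold above Ctrl. Cybb, the catalytic subunit of the phagocyte oxidase, had 10 counts in KD and 0 in the other 6. Among the members, Lyz2 had the highest deposited TPM in KD, a level per transcript length, at 236. C1qc (104), Adam8 (82.9), Ctss (81.8), Gpnmb (50.5) and Mpeg1 (30.2) followed. The reads lie near 3′ ends, so the division by length limits this order. By CPM, Gpnmb (71.7) was above Ctss (66.7) and Adam8 (62.5).

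The 3 chains of complement C1q, which are made together in macrophages, did not follow each other. C1qc had 181 and 218 counts in WT1 and WT2, 150 and 227 in pKO1 and pKO2, 183 in pInv, 167 in KD and 141 in Ctrl. KD lay inside the range of the others, and the ratio of KD to Ctrl was 1.08 (0.856 to 1.36). C1qb had 3 counts in KD and 0 in the other 6, and C1qa had 0 counts in KD and 2 in pInv.

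Of the chemokine receptors, Ccr1 had 23 counts in KD and 0 in the other 6 libraries, at least 6.97-fold above Ctrl. Cx3cr1, the fractalkine receptor, had 0 counts in KD and 1 in WT1. Slc7a2, a cationic amino acid transporter that supplies arginine, had 6 and 2 counts in WT1 and WT2, 5 and 8 in pKO1 and pKO2, 5 in pInv, 22 in KD and 8 in Ctrl. KD was the highest library for Slc7a2, at 2.50 times Ctrl (1.07 to 6.50).

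The absent members therefore were Ptprc, Cd52, Aif1, Fcer1g, C1qa and Cx3cr1, at 0 counts in KD, with Trem2 at 1 count. The gene models of the deposited tables had a median length of 4494 bases for the 28 members present and 3082 bases for the 7 not present, ranges that overlap (1057 to 9719 and 2503 to 7331).

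Other gene lists are read against the shares of all single-gene features present, 49.0% in KD and 46.8% in Ctrl, and against the 1.73% that met the 4-fold rule among features with 10 or more counts in KD. Of 59 other macrophage genes, 33 were present in KD (55.9%) and 11 in Ctrl (18.6%), with 9 to 15 across the other 6 libraries, and 11 of the 20 with 10 or more counts in KD met the 4-fold rule. The share present in KD was thus near that of all features, and the share in Ctrl was lower. Their summed level was 263 CPM in KD and 51.5 to 74.3 CPM in the others. Stab1, a scavenger receptor, had 42 counts in KD and 0 to 3 in the others. Alox5ap, a partner of 5-lipoxygenase, had 33 against 0 to 8. Cyba had 40 counts against 12 to 55, and Slc11a1 34 against 6 to 17. Was went the other way, with 8 counts in KD and 18 to 35 in the others. Cd163, Vsig4, Timd4 and Tlr2 were at 0 in KD. Of 14 macrophage transcription factors, a list that includes Spi1, 10 were present in KD (71.4%) and 8 in Ctrl (57.1%). Of the 4 with 10 or more counts in KD, only 1 met the 4-fold rule. This was Maf, a factor of resident macrophages, with 49 counts in KD and 0 to 2 in the others. Runx1 had 15 counts in KD against 1 to 6, and Zeb2 17 against 6 to 16. Irf8 had 5 counts in KD against 3 to 14, and Irf5 and Tfec were at 0 in KD.

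Of 22 cytokine and chemokine genes, 9 were present in KD (40.9%, below the share of all features) and 2 in Ctrl (9.09%). Ccl2 (31 counts in KD), Cxcl2 (25), Il1rn (24) and Ccl7 (20) were each at 0 in the other 6 libraries, while Tnf, Il1b, Il6 and Il10 were at 0 in KD. Of 12 interferon response genes, 9 were present in KD (75.0%) and 1 in Ctrl (8.33%), with a summed level of 74.5 CPM in KD and 5.06 to 11.9 CPM in the others. Irf7, a regulator of interferon genes, had 32 counts in KD and 0 in the others, and Rsad2, the antiviral protein viperin, had 27 against 0 to 3. Of the 7 interferon response genes with 10 or more counts in KD, 4 met the 4-fold rule, Irf7 and Rsad2 among them. Isg15 had 5 counts in KD against 0 to 5, Ifi27l2a had 1 against 0 to 6, and Ifit1 was at 0 in KD.

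Further lists hold partners of the members and also some members, whose values in KD chose them: 6 of the ITAM list, 3 each of the complement and lipid lists, 2 of the lysosomal list and 1 each of the oxidase and CSF1 lists. Of 18 genes of ITAM adaptors and partners, 10 were present in KD (55.6%) and 3 in Ctrl (16.7%). Hcst, the adaptor DAP10, had 18 counts in KD and 0 or 1 in the others, and Fgr, Btk and Pirb were at 0 in KD. Plcg2 had 26 counts in KD against 17 to 37, and Syk 18 against 7 to 18. Of 14 complement and pattern recognition genes, 7 were present in KD (a share near the 49.0% of all features) and 2 in Ctrl (14.3%), with C3ar1 at 27 counts and C5ar1 at 22, both at 0 in the others. Of 7 oxidase genes, 4 were present in KD and 2 in Ctrl. Ncf4 had 23 counts in KD and 0 in the others, and Ncf1 was at 0 in KD. Rac1 had 446 counts in KD against 205 to 534, and Cyba 40 against 12 to 55. Of 12 genes of the CSF1 axis, 7 were present in KD and 5 in Ctrl. Csf2ra, the alpha chain of the GM-CSF receptor, had 31 counts in KD against 3 to 14. Grb2 had 97 against 41 to 83, Ptpn6 43 against 17 to 56, and Pik3cd 37 against 14 to 31. Lysosomal genes were present almost throughout, 17 of 18 in KD and 15 in Ctrl, with a summed level of 2081 CPM in KD and 1201 to 1570 CPM in the others. Of 14 lipid genes, 10 were present in KD and 8 in Ctrl, and Apoe, a lipoprotein that macrophages secrete, had 547 counts in KD and 82 to 172 in the others.

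**Figure D3:**
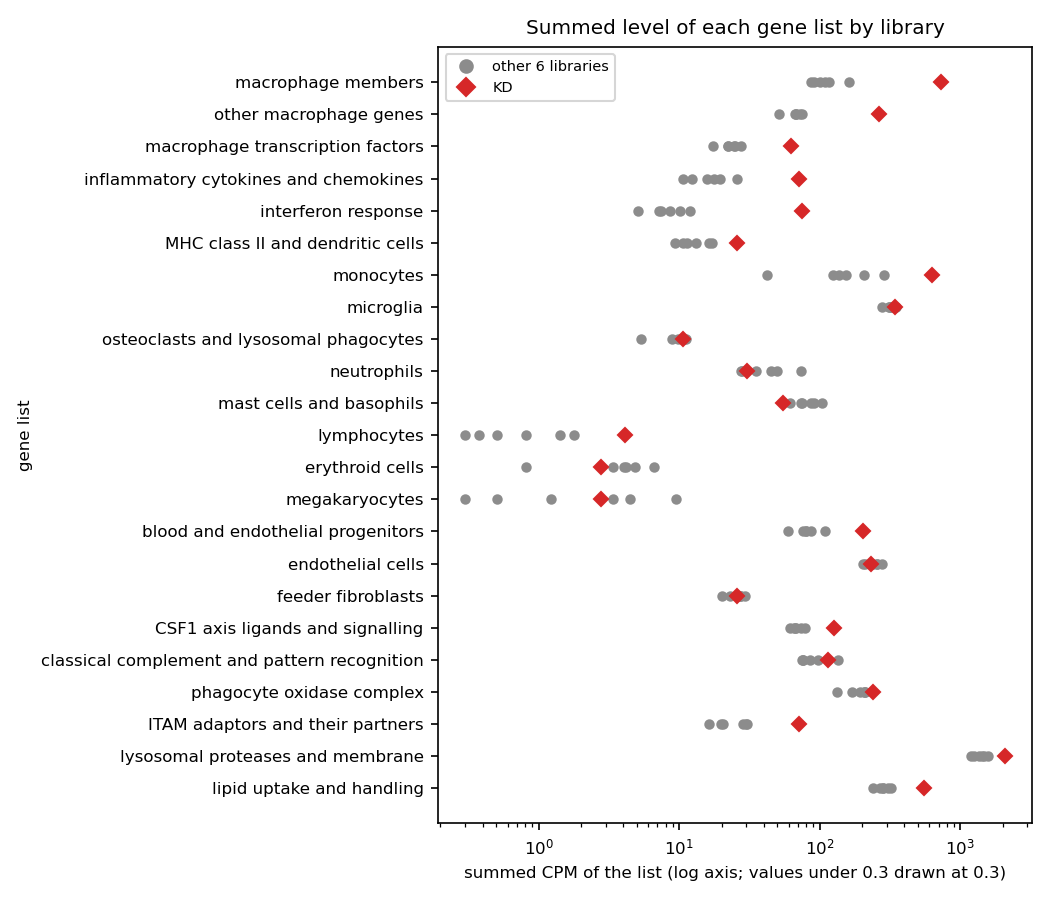
Summed CPM of each gene list (log axis; sums under 0.3 are drawn at 0.3), with KD as red diamonds and the other 6 libraries as grey circles. The macrophage members are at 728 CPM in KD and 87.0 to 162 CPM in the others, whereas the neutrophil, endothelial and fibroblast sums of KD lie inside the range of the others.

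Markers of other blood cells and of carried-over cells were given beside these genes. Of 11 monocyte genes, 4 were present in KD and 2 in Ctrl: Ccr2, the receptor for CCL2, had 22 counts in KD and 0 in the others, Ly6c2 was at 0 in KD, and most of the list's 631 CPM came from Fn1, a matrix protein with 1283 counts. Of 10 microglia genes, 3 were present in KD and in Ctrl, with P2ry12 and Siglech at 0 in KD. Of 14 neutrophil genes, 3 were present in KD and 2 in Ctrl, at 30.3 CPM in KD and 27.4 to 73.1 CPM in the others, with S100a8, S100a9 and Elane at 0 in KD. Of 13 genes of MHC class II and dendritic cells, 6 were present in KD and 2 in Ctrl, with H2-Aa, Flt3 and Itgax at 0 in KD. Bst2, which is also in the interferon list, had 23 counts in KD against 0 to 3, and Zbtb46 11 against 4 to 17. The lymphocyte list had 1 of 13 genes present in KD (Il7r, 9 counts), at 4.14 CPM in KD and 0 to 1.79 CPM in the others. The mast cell list had 1 of 10 present in KD, at 54.7 CPM in KD and 61.6 to 104 CPM in the others, and the osteoclast list 3 of 12, at 10.6 CPM against 5.38 to 11.1 CPM.

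The erythroid and megakaryocyte lists each had 1 of 10 genes present in KD, both at 2.76 CPM, inside the range of the other libraries. Of 15 genes of blood and endothelial progenitors, 7 were present in KD and in Ctrl, at 205 CPM in KD and 59.1 to 109 CPM in the others. Kdr, the VEGF receptor of mesodermal progenitors, had 259 counts in KD and 11 to 97 in the others. Lmo2 had 37 against 0 to 7. Etv2 and Myb, with 55 and 41 counts in KD, were at 25.28 and 18.85 CPM there, inside the range of the others. Gata2, Fli1 and Erg were at 0 in KD. Of 14 endothelial genes, 6 were present in KD and 5 in Ctrl, at 233 CPM in KD and 203 to 275 CPM in the others. Of 16 feeder fibroblast genes, 5 were present in KD and 3 in Ctrl, at 25.7 CPM in KD and 20.2 to 29.3 CPM in the others. Loxl1 had 23 counts in KD against 24 to 47, and Col1a1 5 against 1 to 9. Acta2 had 12 counts in KD against 1 to 9, Col1a2 6 against 0, and Pdgfrb 5 against 0 or 1. Col3a1, Dcn and Postn were at 0 in KD. The part of any of these cell types in the macrophage counts of KD was not tested.

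The features most like the members were ranked by the ratio of KD to the highest of the other 6 libraries, each set to at least 3 counts. The 20 non-members with the highest ratio were Best1, Abat, Cdh23, Ccdc152, Mir1934, Lrsam1, Rmc1, Iffo1, Slfn5, Grtp1, Rdh5, Maf, Pik3ap1, Slc7a11, Spsb2, Helz2, Stab1, Tgfbr2, Mfsd13b and Unc5a. Best1, the bestrophin chloride channel, led with 878 counts in KD and 0 to 11 in the others. Only the ratio over 7 libraries, with a single library in KD, defines this likeness.

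Many of these features ended close to a gene on the other strand. By RefSeq annotation, 12 of the 20 (60.0%) had an opposite-strand gene within the 2000 bases past their own 3′ end, as had 66 of 139 non-members of the 4-fold set (47.5%), 2 of its 15 members (13.3%) and 2165 of 8868 features with 10 or more counts in KD (24.4%). The margin of 2000 bases was taken because the gene models of the deposited tables were a median of 1999 bases longer than the GENCODE M21 transcripts of the same genes, over 17547 features with 1 transcript. Best1 adjoins Fth1, the ferritin heavy chain, which had 593 and 158 counts in WT1 and WT2, 438 and 408 in pKO1 and pKO2, 370 in pInv, 778 in KD and 449 in Ctrl. Cdh23 (245 counts in KD) adjoins Psap, the saposin precursor of lysosomes, which had 125 to 226 counts in the others and 379 in KD. Grtp1 and Rdh5 adjoin the lysosomal membrane genes Lamp1 and Cd63, whose own counts in KD, 510 and 1064, were inside the range of the others. Whether reads of the opposite-strand gene were counted there was not tested, and the strand setting of the counting is not given in the sources used here.

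Conversely, the 2000 bases past the 3′ end of an opposite-strand gene met 5 of the 35 members. Mir1934, next to Cd68, had 88 counts in KD, 1 in Ctrl and 0 in the other 5 libraries, beside the 4 counts of Cd68 itself. Dtx4, next to Mpeg1, had 12 and 26 counts in WT1 and WT2, 12 and 12 in pKO1 and pKO2, 31 in pInv, 141 in KD and 11 in Ctrl. Hmgxb3, next to Csf1r, had 137 counts in KD and 21 to 64 in the others, and Hcst lies next to Tyrobp. Crybg2, next to Cd52, had 9 counts in KD and 1 to 9 in the others. Counts of Cd68, Mpeg1, Csf1r, Tyrobp and Cd52 are therefore uncertain as measures of those genes alone. Genes on the same strand were not searched, so whether other members, C1qc among them, hold reads of a neighbour was not tested. On chromosomes 5 and 6, which hold Cd36, Gpnmb and Clec4d, the models of Fras1 and Fgd5 span 97.0 and 92.0 megabases and took 0.870% to 1.15% and 4.16% to 5.46% of all counts.

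**Figure D4:**
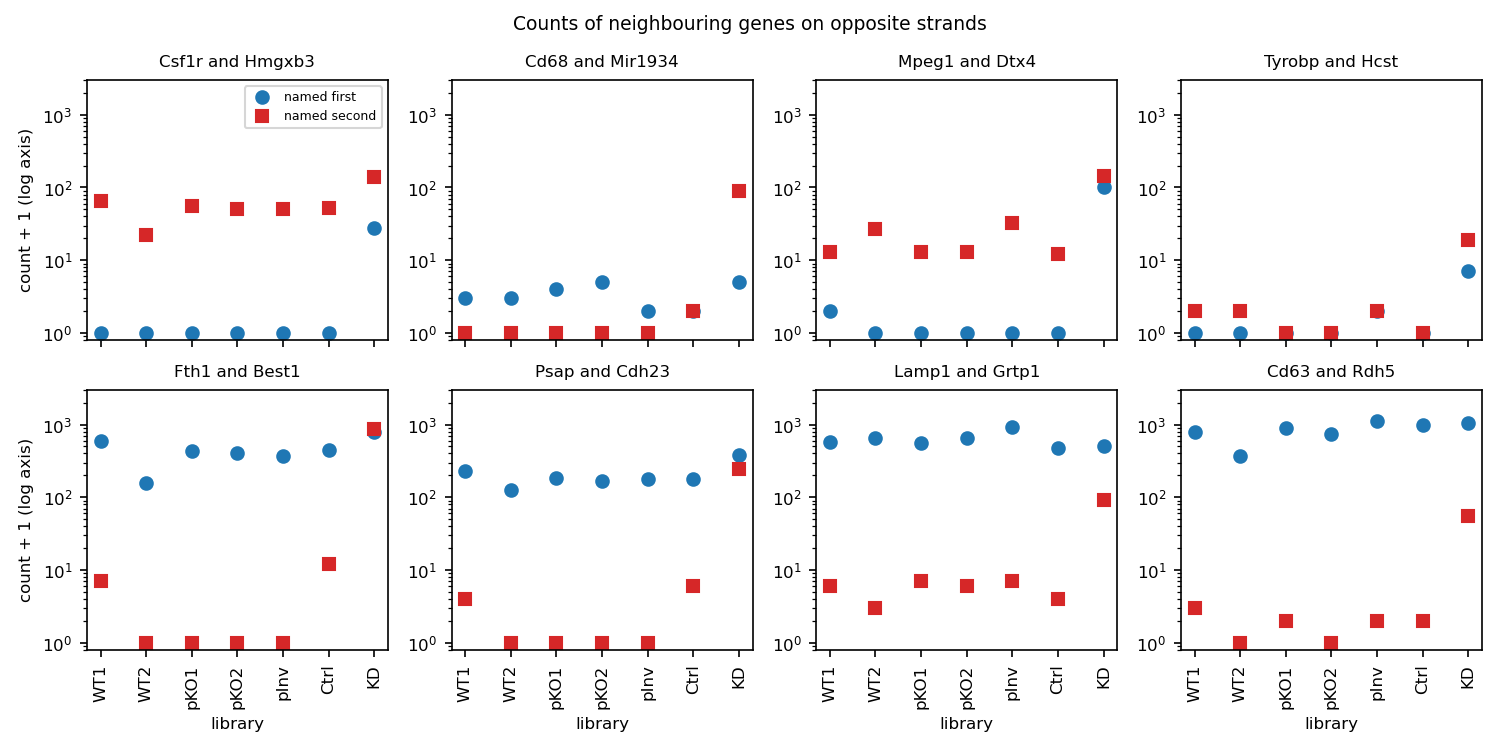
Counts + 1 (log axis) in the 7 libraries for 8 pairs of neighbouring genes on opposite strands, with the gene named first as blue circles and the gene named second as red squares. In KD, Best1 (878) and Cdh23 (245) reach the order of Fth1 (778) and Psap (379), while in the other libraries they stay at 0 to 11 counts.

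The promoter knockout and the inversion were compared with wild type for the members with counts outside KD. Of the members, 20 passed the filter on low counts, 18 of them only through KD, and C1qc and Lpl passed with KD and Ctrl left out. In pKO against WT, the quasi-likelihood test of edgeR, with p-values adjusted by Benjamini-Hochberg, called 0 of 10265 features (0%), with 106 at an unadjusted p under 0.05, and so 0 members. DESeq2 and limma called 0 members as well. For most members this says nothing of stability: 9 of the 20 were at 0 in every WT, pKO and pInv library, where no call was possible, and values are given for C1qc and Lpl alone. Lpl was at 24.3 and 23.3 CPM in WT and at 11.4 and 13.1 CPM in pKO, a log2 difference of -0.95 (SE 0.35, edgeR unadjusted p 0.0264, adjusted p 1). C1qc differed by -0.26 on the log2 scale (SE 0.36, edgeR adjusted p 1).

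In pInv against WT, 0 of 10265 features were called (0%), with 152 at an unadjusted p under 0.05, and 0 members. The single pInv library was assumed to vary like WT and pKO. Lpl differed by -0.01 (SE 0.41) and C1qc by -0.35 (SE 0.45), each with an adjusted p of 1. Separate cultures are not stated for libraries of the same group, and the p-values then reflect the scatter of these particular libraries, which may be technical. Grouping by the genotype field, in place of the titles, also called 0 members in both comparisons.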

How the data were processed

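Polyadenylated RNA of 7 libraries was measured with Lexogen QuantSeq, a kit whose reads lie near the 3′ ends of transcripts, per the labels' protocols. The authors deposited expected counts, TPM and FPKM per gene, per the file headers. They came from RSEM on mm9, per the submitters' processing notes, with no version given. The expected counts were deposited without normalization. TPM values, scaled by the authors for length and total, gave levels per length and an alternative, and FPKM, also deposited, was left out. For trimming, duplicate handling and strand setting, nothing is given in the sources used here.

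Features were named from RefSeq GRCm38.p6, whose build differs from mm9, so it gave names, neighbours and promoter windows. Of 24990 features, 23447 were single genes and 375 merged genes. A ribosomal RNA feature took 12.9% to 24.1% of counts and was kept.

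Expected counts were rounded. In R 4.3.3, edgeR 4.0.16 scaled libraries by TMM, filtered with filterByExpr and fitted all 7 libraries, grouped by title, without covariates. The fit had 2 residual degrees of freedom and a biological coefficient of variation of 0.294. DESeq2 1.42.0 and limma 3.58.1, on log2(TPM + 1), were alternatives, beside other scalings, filters, count minimums, left-out libraries and groups from the genotype field. The steps were tested on simulated data.

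KD and Ctrl ratios carry exact binomial 95% intervals. A Ctrl of 0 was set to 3 counts, which gives a lower bound without the counting error of KD. The members and lists were chosen with earlier results of these data known. Values in every library were given for the members with the 20 highest counts in KD or with 3 counts elsewhere. The 20 most alike non-members by ratio were listed. Genes of the other lists were named with their values in view, and some with higher counts in KD were passed over. Genes named at 0 in the other lists, the neighbouring genes described and the long gene models were chosen after their values were seen.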

Additional observations from a re-analysis of the deposited data

How the results depend on the processing

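The summed level of the members in KD, 728 CPM, was 769 with total counts in place of TMM, 907 with the ribosomal feature left out and 796 in deposited TPM. The ratio of KD to Ctrl, 8.37, was 6.41 without Lyz2 and 89.1 without C1qc and Lpl, the latter an alternative chosen after seeing the data. The ratio to the highest other library, 4.50, was 5.39 with total counts and 61.8 without C1qc and Lpl, and ranged from 4.50 to 6.28 when a WT or pKO library was left out, the upper value being without WT2. The members present in KD, the members 4-fold above every other library (15 to 20 across the alternatives) and the 0 members called in both tested comparisons stayed within 1.5 times of their values in every alternative run; for the tests this rests on C1qc and Lpl, since the other members tested passed the filter through KD. WT and pKO share replicate numbers, but the labels do not say that these pair the libraries: the differences of the replicates correlated at 0.311 over genes (2 pairs), and a fit with the replicate block, for pKO against WT, called 0 of the 2 members it tested (C1qc and Lpl). Depth limits what can be said of the members at 0 in KD, since 0 counts allow a level of up to 1.38 CPM by the floor of 3 counts.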
